A study of Homo sapiens with 15 samples.

Results

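The response of senescent WI-38 fibroblasts to the SRC siRNA named siSRC4 comprises 1280 genes, of 4872 genes that appear in any of 4 tables deposited for the series. They are all the rows of the authors' deposited table for that siRNA against the PD45 control, and in the authors' own test each one passed an adjusted p of 0.05 with a change of 1.5-fold or more. The members were therefore chosen by the very contrast described here. Values of this contrast are given as a description, and no test of it is independent of that choice. WI-38 is a line of human fetal lung fibroblasts that divides a limited number of times in culture, and PD is read as population doublings. The siSRC4 group (3 libraries) is WI-38 cells at PD45 with DMSO, the lipofection reagent lipo3000 and an siRNA against SRC. The PD45 control (3 libraries) is cells of the same passage with DMSO, lipo3000 and NC, read as a negative-control siRNA. Passage, vehicle and lipofection are thus shared by both groups. The labels do not say whether the libraries of a group are separate cultures, so every p-value measures the spread between libraries, which may be technical. The dose of the siRNA and the time after lipofection are not given in the sources used here.

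SRC encodes a non-receptor tyrosine kinase, attached to the inner face of the plasma membrane, that relays signals from integrins and growth factor receptors to the cytoskeleton, the ERK and PI3K pathways and STAT factors. A small interfering RNA guides the RNA-induced silencing complex to a matching transcript, which is then cleaved. It can also repress transcripts that match only its seed, so different siRNAs against 1 gene need not give the same expression profile. Senescent fibroblasts have left the cell cycle for good, and they secrete cytokines, growth factors and proteases that remodel the surrounding matrix.

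Of 14598 genes that the authors tested, a number worked out from the adjusted p in the first row of the table, 8.77% are listed. Shares of gene lists given below are over all genes of the list, tested or not. They may therefore lie below the share of the tested members. Of the listed genes, 571 were higher and 709 were lower with siSRC4, which is 3.91% and 4.86% of the genes tested. Levels are the normalised signal of the table, whose unit is not named as TPM or FPKM, and read depth is unknown. Ratios below are the mean signal of the 3 siSRC4 libraries over that of the 3 PD45 control libraries. The median ratio was 1.75 for the genes listed as higher, and the genes listed as lower had a median 1.63-fold lower signal. A ratio of at least 2 was reached by 162 genes with higher signal (12.7% of those listed), and a signal at least 2-fold lower was reached by 129 (10.1%). At a 3-fold difference the counts were 38 higher (2.97%) and 19 lower (1.48%). For 1136 genes (88.8%) every library of one group lay above every library of the other. A limma re-test of the listed genes on log2(signal + 1) could be fitted for 1170, and 1096 of these passed an adjusted p of 0.05 in the authors' direction (93.7%), 471 higher (40.3%) and 625 lower (53.4%). The share is high because the genes had already been selected, and nothing is read from it. For the other genes of the genome no siSRC4 value was used here, so a gene absent from the list is not shown to be unchanged.

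**Figure D1:**
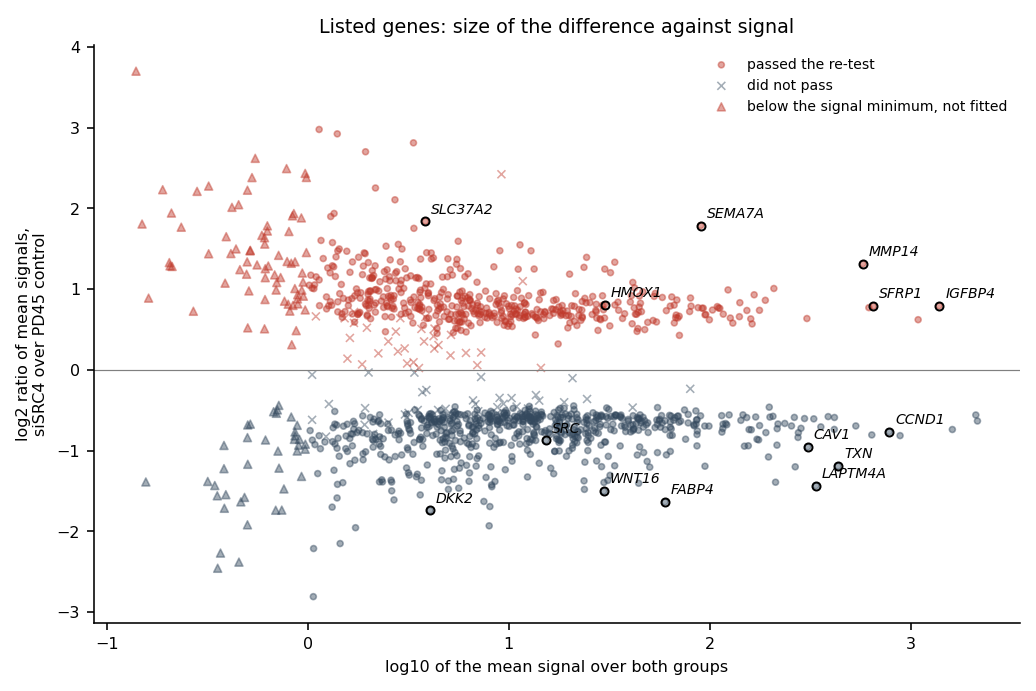
Each point is 1 of the 1280 listed genes, with the log10 of its mean signal over both groups on the x axis and the log2 ratio of mean signals, siSRC4 over PD45 control, on the y axis; red marks genes with a ratio above 1 and blue genes with a ratio below 1. The gap around 0, which few points cross, comes from the authors' fold minimum of 1.5, and the steepest ratios lie at low signal.

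The targeted transcript was lower. SRC (ENSG00000197122) had signals of 9.51, 11.1 and 11.8 in the siSRC4 libraries, against 18.9, 20.5 and 19.9 in the PD45 control libraries. Every siSRC4 library lay below every control library. Mean signal was 10.8 ± 1.16 with siSRC4 and 19.8 ± 0.766 in the control (SD, n = 3 each), so 54.6% of the control signal remained. In the limma re-test the difference was -0.82 ± 0.121 on the log2 scale (SE, adjusted p = 0.000586). An exact permutation test of the same 6 values gave a two-sided p of 0.1, the smallest that 3 against 3 libraries allow. In a list of 16 SRC family kinases and regulators written for this report, SRC alone was listed (6.25%). Beside it, the other SRC siRNA of the series, siSRC2, left a ratio of 0.57 against the same PD45 control libraries.

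**Figure D2:**
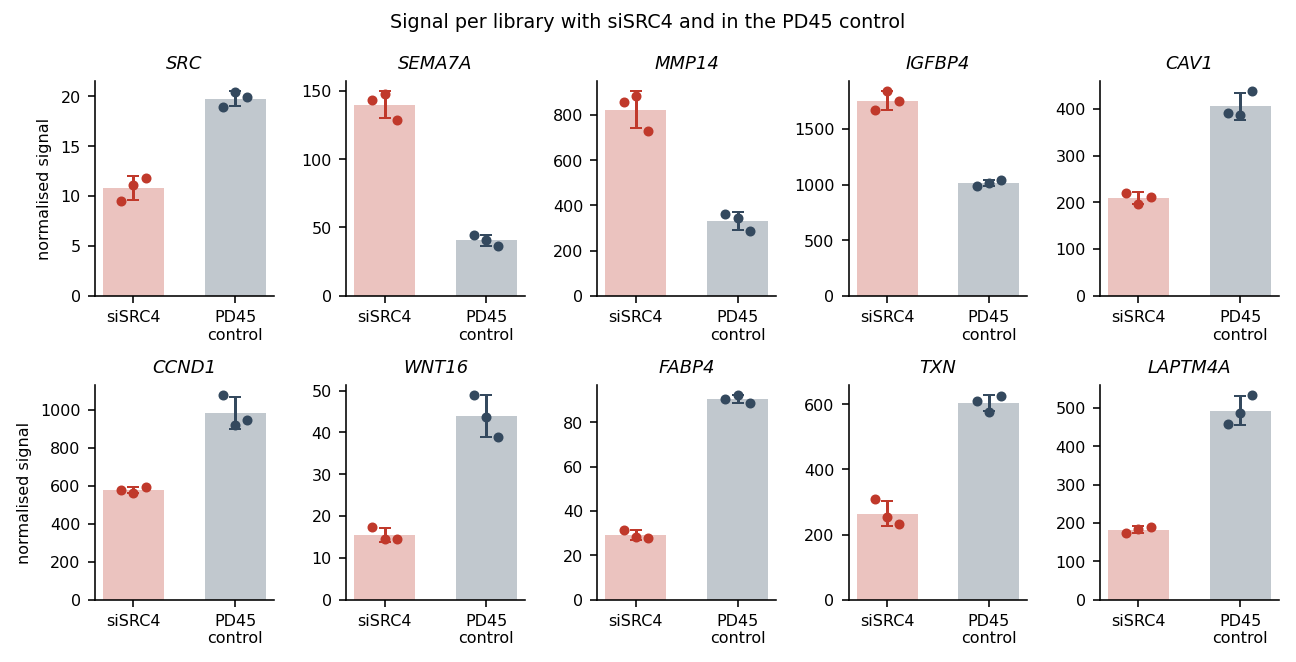
Normalised signal of 10 listed genes in the 3 siSRC4 libraries (red, left) and the 3 PD45 control libraries (blue, right), with points for libraries, bars for means and error bars for SD; each panel has its own axis, which starts at 0. In none of the 10 panels do the points of the groups overlap.

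Before the gene groups, a property of the whole list has to be stated, because it moves with direction. The GC content of each gene's longest annotated transcript, available for 1277 genes, had a median of 55.4% among genes higher with siSRC4 and 41.0% among genes lower with it. The interquartile ranges did not meet, at 50.2% to 60.5% for higher genes and 38.2% to 45.0% for lower genes. Over 5 bins of GC content with like numbers of genes, the share of listed genes that were higher was 3.91% in the bin of lowest GC, then 11.8%, 38.4% and 77.3%, and 91.8% in the bin of highest GC. The median transcript length was 3760 bases for higher and 4022 bases for lower genes. GC content also moved with the libraries inside the siSRC4 group. Over the bin of lowest GC, the median log2 deviation from the group's own mean was 0.22 in siSRC4 replicate 1, 0.01 in replicate 2 and -0.23 in replicate 3. For the control libraries the same deviations were 0.06, 0.02 and -0.07. In the bin of highest GC all 6 libraries lay between -0.03 and 0.05. The median GC content of listed members is therefore given, in the text or in the plot of groups by direction, for groups with at least 3 listed members, and the part of GC content in the directions was not tested.

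**Figure D3:**
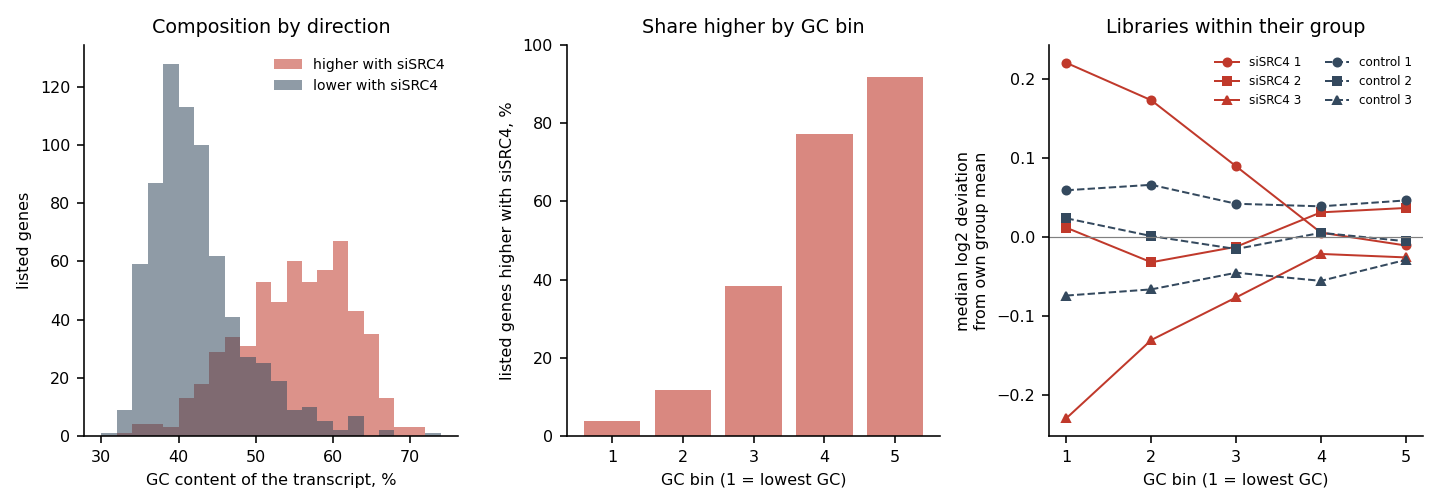
Left, number of listed genes by GC content of the longest transcript in percent, for genes higher (red) and lower (blue) with siSRC4; centre, percent of listed genes that were higher in each of 5 bins of GC content; right, median log2 deviation of each library from the mean of its own group, by GC bin, with red lines for siSRC4 and blue dashed lines for the PD45 control. The share higher is 3.91% in the lowest bin and 91.8% in the highest, and siSRC4 replicates 1 and 3 part at low GC.

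By chromosome, where base composition also varies, 21 genes were higher and 1 was lower on chromosome 22, and 46 were higher and 13 lower on chromosome 19. On chromosome 4 the counts were 4 higher and 57 lower, and on chromosome 2 they were 20 higher and 64 lower. Protein-coding genes made up 508 of the higher and 667 of the lower genes, and long non-coding RNAs 26 and 18.

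Among genes with a symbol whose higher group mean was at least 5, that passed the re-test and whose groups were separate, SLC37A2 rose the most. It encodes a sugar-phosphate transporter of the endoplasmic reticulum and had signals of 7.26, 5.84 and 4.96 in siSRC4 libraries and 2, 1.47 and 1.57 in controls, a ratio of 3.58. SEMA7A, a membrane-anchored semaphorin that binds integrins and plexin C1, followed with 143, 148 and 129 in siSRC4 libraries, against 44.8, 40.5 and 36.2 in controls. Its ratio was 3.46 (limma, log2 difference 1.77 ± 0.112 SE, adjusted p = 4.09e-05), and the groups lay far apart. The zinc importer gene SLC39A4 had a ratio of 3.02, with controls of 1.71, 1.83 and 4.83, and the phospholipase A2 gene PLA2G4C 2.93. The lipid flippase gene ATP8B3 had a ratio of 3.37, but its siSRC4 signals of 8.87, 4.18 and 2.57 differed widely. The authors' own fold for ATP8B3 was 1.80. LRRC32, whose product holds latent TGF-beta on the cell surface, had signals of 11.9, 14.4 and 13.5 with siSRC4, against 4.21, 4.96 and 5.15 in controls, and a ratio of 2.78. PKIB, an inhibitor of protein kinase A, rose 2.78-fold, but its siSRC4 signals of 27.1, 18.9 and 10.9 differed widely among themselves. CD163L1, a scavenger receptor gene, rose 2.73-fold (the authors' own fold was 1.88), and PLPP2, a lipid phosphate phosphatase gene, 2.63-fold. The complement gene C4A had a ratio of 2.74, from siSRC4 signals of 3.55, 9.53 and 4.08, and the authors' own fold was 1.94. C4B is a near-identical copy, so the split of reads between the pair is uncertain.

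Among the largest falls were secreted regulators. DKK2, a modulator of WNT receptors, had signals of 3.05, 1.69 and 0.87 in siSRC4 libraries, against 6.87, 5.51 and 6.35 in controls, 3.34-fold lower. WNT16, a ligand of the same pathway, had 17.4, 14.6 and 14.6 with siSRC4 and 49.0, 43.7 and 39.0 in controls, 2.83-fold lower. TSLP, a cytokine of epithelia and stroma, was 2.92-fold lower, with 1.4, 1.79 and 2.36 in siSRC4 libraries and 4.2, 5.29 and 6.73 in controls. In all 3 genes the groups were separate. FABP4, a fatty acid carrier, had 31.6, 28.1 and 27.9 with siSRC4, against 90.5, 92.5 and 88.9 in controls, 3.1-fold lower (limma, log2 difference -1.60 ± 0.098 SE, adjusted p = 4.09e-05). OLR1, a receptor for oxidised lipoprotein, was 2.79-fold lower, and EXOC6, a subunit of the exocyst that tethers secretory vesicles, 3.23-fold lower. The collectin gene COLEC10 was 2.79-fold lower and the zinc finger gene ZNF804A 2.76-fold lower. LCE2C, a late cornified envelope gene, was 3.81-fold lower, but it belongs to a family of near-identical neighbours and its counts are uncertain. RIPOR3-AS1 was 3.09-fold lower; it is an antisense transcript, and since the strand setting of the counting is not given in the sources used here, its reads cannot be told apart from those of RIPOR3.

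In the lists closest to SRC signalling all listed genes were on the lower side. Of 32 genes for SRC substrates and focal adhesions, 2 were listed, both lower, with a median GC of 40.2%. CAV1, the caveolin that SRC phosphorylates, had signals of 221, 196 and 212 in siSRC4 libraries and 391, 387 and 439 in controls, 1.93-fold lower, with no overlap. ARHGAP5, a GTPase-activating protein, had 10.1, 8 and 4.64 with siSRC4, against 13.5, 11.8 and 8.88 in controls, and did not pass the re-test (limma, adjusted p = 0.0517), though it did with the replicate number as a block (adjusted p = 0.00478). Of 26 genes of PAK kinases and small GTPases 4 were listed, all lower (median GC 40.2%). The small GTPase gene RND3 had 124, 102 and 94.5 with siSRC4, against 200.4, 199 and 213 in controls, 1.92-fold lower. CDC42, the GTPase that activates PAK kinases, had 202, 172 and 175 with siSRC4 and 294, 283 and 291 in controls, 1.58-fold lower. Both GTPase genes were lower without overlap. ROCK1, a kinase of the actin cytoskeleton, had overlapping libraries, 9.63, 8 and 4.84 with siSRC4 and 12.3, 12.6 and 8.8 in controls. Its adjusted p was 0.0415 by limma, and it was 0.0549 without siSRC4 replicate 2, 0.121 without siSRC4 replicate 3, 0.123 without control replicate 1 and 0.124 without control replicate 2. ROCK2, its paralog, had 8.73, 8.13 and 4.64 with siSRC4, against 11.3, 11.7 and 8.19 in controls, and an adjusted p of 0.0535 (limma), and 0.00619 with the replicate number as a block. No PAK gene was listed.

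The JAK-STAT list had 2 of 33 genes, both lower (median GC 40.1%). IL6ST, the shared receptor chain gp130 of the IL-6 family, had 59.4, 44.7 and 29.7 in siSRC4 libraries and 71.2, 74.8 and 58.3 in controls, with overlapping libraries; its adjusted p of 0.0197 (limma) became 0.0624 without control replicate 1 and 0.0649 without control replicate 2. No JAK gene was listed. Among 53 genes of receptor tyrosine kinases and the RAS-ERK pathway, 6 were listed, 4 lower and 2 higher. All 6 passed, as did 93.7% of all fitted genes. MET, the receptor for hepatocyte growth factor, was 1.8-fold lower, with 5.57, 4.97 and 4.31 in siSRC4 libraries, against 9.86, 9.62 and 7.28 in controls. DUSP6, an ERK phosphatase whose gene is itself an ERK target, was 1.48-fold lower. The collagen receptor kinase DDR1 rose 1.61-fold and FGFR4 1.62-fold. Of 29 immediate-early genes 5 were listed. ATF3 fell 1.91-fold, while IER3, FOSL2, BHLHE40 and NR4A2 rose by ratios of 1.59, 1.68, 1.61 and 1.73. The call of NR4A2 was lost without siSRC4 replicate 1 or 2 or control replicate 2 or 3, with an adjusted p of up to 0.0932 (limma). FOS, JUN and EGR1 were not among the listed genes.

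Caveolae, the membrane pits that caveolins and cavins build, were represented by 3 of 7 genes (median GC 43.2%), all lower. All 3 passed the re-test (93.7% of all fitted genes did) and had no overlap (88.8% of all listed genes). The family was singled out after its values were seen. CAVIN2 was 2.32-fold lower, with 10.3, 9.16 and 9.73 in siSRC4 libraries, against 24.7, 22.8 and 20.4 in controls. CAV2, the partner of caveolin-1, had 71.5, 61.6 and 70.2 with siSRC4 and 108, 105 and 98.8 in controls, 1.54-fold lower. The genes CAV2, CAV1 and MET are direct neighbours on chromosome 7 in the RefSeq gene order. This was 1 of 11 runs of at least 3 adjacent protein-coding genes that were all listed. Other runs with each gene listed as lower included OLR1, TMEM52B and GABARAPL1 on chromosome 12 and HCFC2, NFYB and TXNRD1 on the same chromosome. They also included SLC25A46, TSLP, WDR36 and CAMK4 on chromosome 5, and further such runs are not named here. The longest run was 6 gamma protocadherin genes on chromosome 5, all listed as higher.

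Genes of the NRF2 pathway formed the group with the largest share of listed members among the lists of at least 10 genes written for this report. NRF2, encoded by NFE2L2, is a transcription factor that is kept low by KEAP1 and that induces genes of glutathione and thioredoxin metabolism through the antioxidant response element. Of 28 genes, 12 were listed (42.9%), 11 lower and 1 higher. All 12 passed the re-test (93.7% of all fitted genes did), and in all 12 the groups were separate (88.8% of all listed genes). The median ratio of the 12 genes was 0.604, beside a median ratio of 0.612 for all genes listed as lower. The median GC content of the 12 genes was 45.2%. Of the 11 lower members 3 lay in the upper 2 bins of GC content, where 79 of the 707 lower genes lay in all. The counts of 11 lower and 1 higher stood when any single library was left out.

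The core sequence of the antioxidant response element, TGACNNNGC on either strand, was sought in the 250 bases before the transcription start, with RefSeq promoters on GRCh38.p14. Of the 12 listed genes 8 were in that promoter table, and 2 of these, GCLM and TXNRD1, held the motif. It occurs in 3013 of 27305 promoters of the same length (11.0%). Both promoters are printed because they hold the motif. The other listed genes in the promoter table, NQO1, GCLC, TXN, SRXN1, AKR1C1 and NFE2L2, were lower too and held no match. Among the NRF2 genes that were not listed, PGD and ME1 held the motif as well. In the sequences the match is written in capitals, and each sequence runs along its gene's strand. For GCLM, chr1:93909431-93909680 on the minus strand, the match lies 34 to 26 bases before the start and reads TGACNNNGC on the opposite strand. For TXNRD1, chr12:104215529-104215778 on the plus strand, it lies 99 to 91 bases before the start. Neither match overlaps the AP-1 motif TGANTCA. A match is a description of the letters and no evidence of binding.
GCLM: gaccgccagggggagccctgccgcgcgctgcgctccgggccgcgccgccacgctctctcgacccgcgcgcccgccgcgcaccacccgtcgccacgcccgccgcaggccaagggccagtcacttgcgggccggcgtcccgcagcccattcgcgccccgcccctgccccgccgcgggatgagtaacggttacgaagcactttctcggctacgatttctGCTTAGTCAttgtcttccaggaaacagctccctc
TXNRD1: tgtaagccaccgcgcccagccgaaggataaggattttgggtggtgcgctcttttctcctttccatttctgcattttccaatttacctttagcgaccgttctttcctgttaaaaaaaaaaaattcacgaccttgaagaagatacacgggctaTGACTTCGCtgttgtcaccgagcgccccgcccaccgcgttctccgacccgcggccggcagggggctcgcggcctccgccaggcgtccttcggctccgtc

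NFE2L2 itself had signals of 37.5, 32.6 and 24.0 in siSRC4 libraries, against 55.8, 54.2 and 46.5 in controls, 1.66-fold lower. The listed genes of the thioredoxin system were lower as well. TXN, the thioredoxin, had 309, 253 and 232 with siSRC4 and 612, 576 and 625 in controls, 2.28-fold lower (limma, log2 difference -1.20 ± 0.119 SE, adjusted p = 0.000232). TXNRD1, the reductase that recharges it, had 235, 198 and 176 with siSRC4, against 388, 328 and 330.1 in controls. PRDX1, a peroxiredoxin that thioredoxin serves, had 712, 628 and 585 with siSRC4, against 1079, 1097 and 1205 in controls, and SRXN1, which repairs over-oxidised peroxiredoxin, was 1.54-fold lower. PRDX1 has processed pseudogenes, so its counts are less certain. Glutathione synthesis was represented by SLC7A11, the cystine importer, at 10.3, 8.51 and 6.29 with siSRC4, against 20.1, 16.9 and 14.8 in controls, 2.06-fold lower. GCLC and GCLM, the catalytic and modifier subunits of glutamate-cysteine ligase, were 1.65-fold and 1.47-fold lower. GCLM, the gene whose promoter is shown above, had 11.6, 10.7 and 10.7 with siSRC4, against 16.2, 16.5 and 15.6 in controls. Among the reductases, NQO1 had 237, 197 and 209.7 with siSRC4, against 391, 323 and 348 in controls, 1.65-fold lower. AKR1C1 was 2.59-fold lower, but its near-identical relatives in the AKR1C family make its share of reads uncertain. HMOX1, the haem oxygenase gene, went the other way, with 42.3, 37.4 and 34.7 in siSRC4 libraries, against 25.3, 21.2 and 18.9 in controls, a ratio of 1.75.

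**Figure D4:**
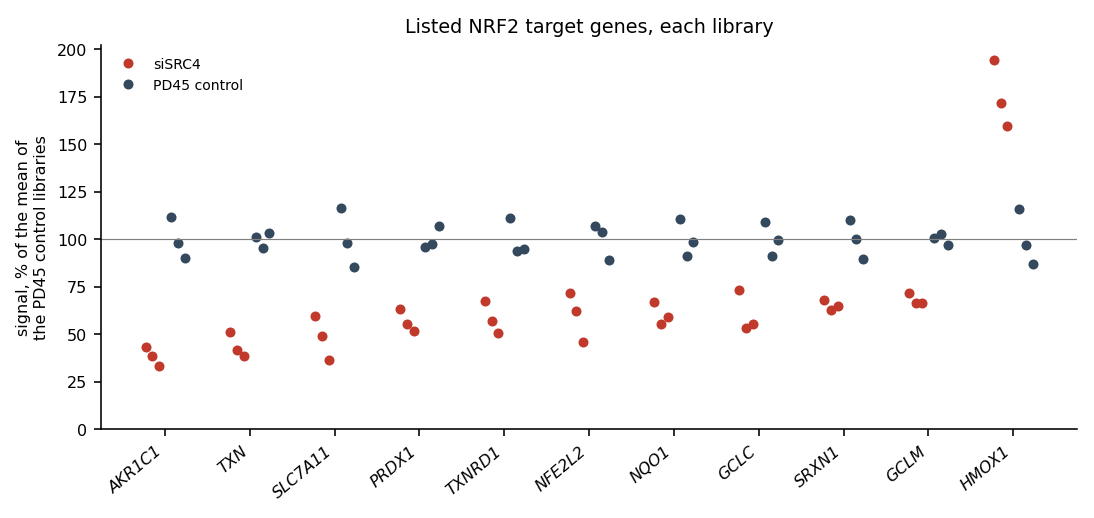
Signal of 11 of the 12 listed NRF2 genes in each library, as a percentage of the mean of the 3 PD45 control libraries (y axis), with siSRC4 in red at left and the PD45 control in blue at right for each gene. In 10 genes all siSRC4 points lie below all control points, and in HMOX1 they lie above.

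In the list of matrix proteases and their inhibitors 8 of 52 genes were listed (15.4%), all as higher, with a median ratio of 2.29; 7 passed the re-test and ADAM8 was below its signal minimum. Median GC was 59.8%, and none of the 8 lay in the lower 2 bins of GC content, which held 40 of the 570 higher genes. MMP14, the membrane-bound matrix metalloproteinase that activates MMP2 and cleaves collagen, had 859.6, 882 and 729 in siSRC4 libraries, against 363, 343 and 286 in controls, a ratio of 2.49 (limma, log2 difference 1.32 ± 0.123 SE, adjusted p = 0.000195). The other membrane-type enzyme genes MMP15 and MMP24 had ratios of 2.28 and 2.71, and MMP11, a stromelysin, 2.23. ADAM19, a membrane sheddase, had 45.1, 47.0 and 42.1 with siSRC4 and 22.5, 18.6 and 17.1 in controls, a ratio of 2.31. Every siSRC4 library exceeded every control library in each of the 8 genes, and 88.8% of all listed genes had separate groups. Outside that list some matrix protease genes were lower. ADAMTS8, a protease of proteoglycans chosen here after its values were seen, was 2-fold lower without overlap. Its relative ADAMTS19 had 2.56, 4.15 and 3.87 with siSRC4, against 8.1, 8.41 and 11.0 in controls, and was 2.6-fold lower.

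Integrins, the matrix receptors upstream of SRC, were represented by 7 of 23 genes (30.4%). All 7 passed, as did 93.7% of all fitted genes. Of the 7 integrin genes, 5 were higher and 2 were lower (median GC 49.6%). ITGA3, a laminin receptor subunit, had 239.5, 259 and 233 in siSRC4 libraries, against 141, 145 and 115 in controls, a ratio of 1.82. The laminin-binding ITGA6 rose 1.78-fold, the collagen-binding ITGA11 1.61-fold and ITGA10 2.83-fold, and ITGB3, a partner in the vitronectin receptor, 1.59-fold. The collagen-binding ITGA1 had 18.0, 14.4 and 11.8 with siSRC4, against 29.1, 23.2 and 23.7 in controls, 1.72-fold lower, and ITGA8, a nephronectin receptor subunit, was 2.52-fold lower. Subunits that bind collagen were thus found on both sides.

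Collagens and their processing enzymes were listed 8 times in 43 genes (18.6%), 6 higher and 2 lower, with a median GC of 50.7%. COL4A1, a basement membrane collagen, had 184, 199 and 191 in siSRC4 libraries, against 135, 113 and 96.4 in controls, a ratio of 1.67. COL8A1 rose 1.74-fold and COL5A1 1.5-fold. Prolyl 4-hydroxylase subunits, which stabilise the collagen helix, were split. P4HA2 had 109, 115 and 107 with siSRC4 and 63.1, 69.6 and 61.2 in controls, a ratio of 1.71, and P4HA3 had a ratio of 2.38. P4HA1 had 51.1, 38.6 and 37.1 with siSRC4, against 66.9, 69.0 and 66.6 in controls, 1.6-fold lower, and the lysyl hydroxylase gene PLOD2 was 1.58-fold lower. Of 47 other matrix genes, 7 were listed. The laminin chain genes LAMB3, LAMA1 and LAMB2 had ratios of 2.62, 1.68 and 1.56, and fibulin-2 (FBLN2) 1.56. Periostin (POSTN) was 2.26-fold lower and CCN3, a matricellular regulator, 2.5-fold lower. CCN4 was lower at signals too low to fit.

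**Figure D5:**
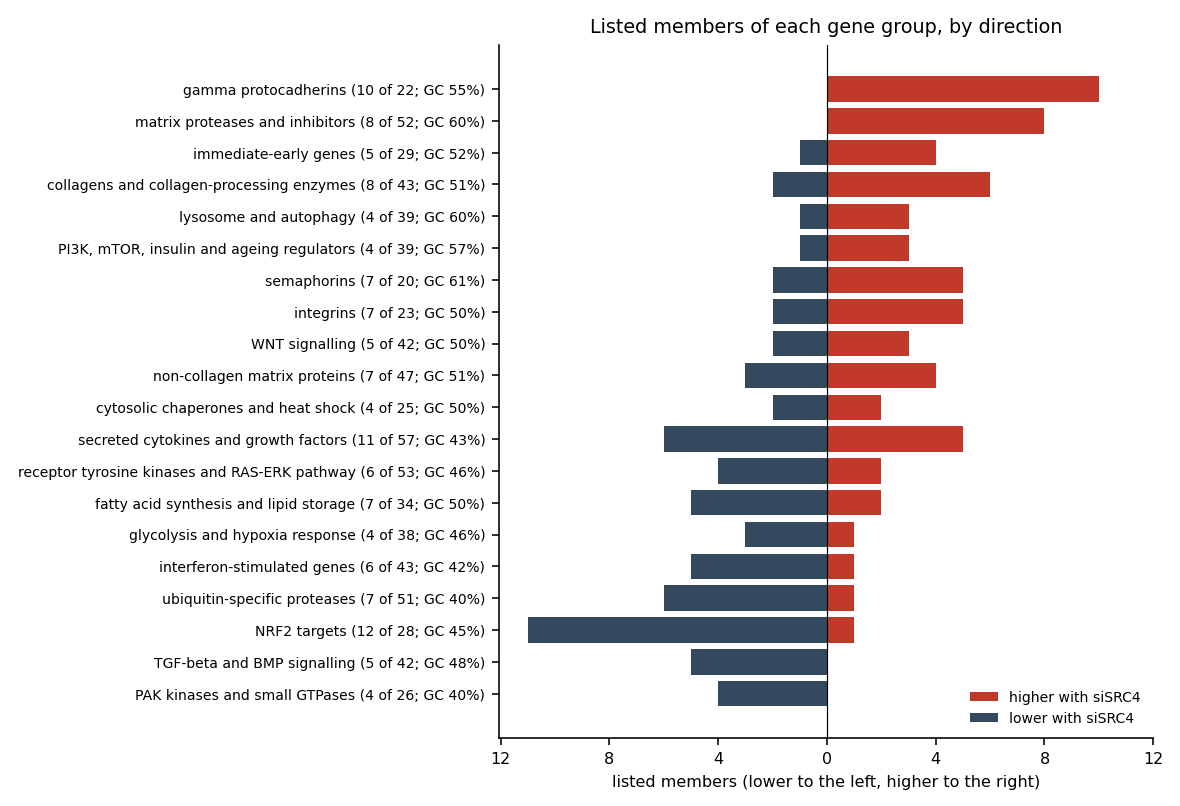
Number of listed genes of each group that were lower (blue, to the left of 0) or higher (red, to the right) with siSRC4, for groups with at least 4 listed members other than the solute carrier and ZNF families; brackets give the listed and total members and the median GC content of the listed ones. NRF2 targets reach furthest to the left, with 11 lower genes, and gamma protocadherins, a family chosen after its values were seen, furthest to the right, with 10 higher genes.

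Secreted cytokines and growth factors were listed in both directions, 5 higher and 6 lower of 57 (19.3%). Each had separate groups, as did 88.8% of all listed genes, and 9 passed the re-test. HGF and FGF7 were among the lower members. HGF, the ligand of MET, had 31.2, 28.2 and 33.4 in siSRC4 libraries, against 60.7, 65.1 and 62.8 in controls, 2.03-fold lower. FGF7, which acts on epithelia, had 24.3, 14.9 and 15.9 with siSRC4 and 47.4, 46.7 and 42.1 in controls, 2.47-fold lower. TNFRSF11B, the decoy receptor osteoprotegerin, had 64.1, 52.6 and 56.2 with siSRC4, against 145, 123 and 127 in controls, 2.28-fold lower, and the TIE2 ligand ANGPT1 was 1.81-fold lower. IL33 and PDGFD were listed as lower at signals that stayed below the minimum for the re-test. Of the higher genes, IL6, a central cytokine of the senescent secretome, had 8.46, 6.5 and 6.79 with siSRC4, against 3.71, 3.4 and 4.42 in controls, a ratio of 1.89. IL32 had 54.1, 58.8 and 62.5 with siSRC4 and 27.2, 32.6 and 33.1 in controls, a ratio of 1.89. The chemokine CXCL12 rose 1.87-fold, the EGF receptor ligand HBEGF 1.64-fold and ANGPTL4, an inhibitor of lipoprotein lipase, 1.7-fold. The 5 higher members had GC contents of 44.5% (IL6), 47.5% (CXCL12), 50.9% (HBEGF), 58.7% (IL32) and 63.3% (ANGPTL4), and HGF and FGF7 had 35.9% and 33.3%.

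The WNT list and the TGF-beta and BMP list each held 5 listed genes of 42 (11.9%). Of all genes tested, 8.77% were listed. In the WNT list, beside the lower DKK2 and WNT16, SFRP1, a secreted WNT antagonist, had 829, 870.2 and 774 in siSRC4 libraries, against 462, 501 and 467 in controls, a ratio of 1.73, and WNT9A had 2.23. TCF7 was listed as higher, with overlapping libraries; it did not pass (limma, adjusted p = 0.157) except with the replicate block (0.0484) or without control replicate 1. In the TGF-beta and BMP list all 5 were lower (median GC 47.7%) and passed, as did 93.7% of all fitted genes. SMURF2, a ubiquitin ligase for SMADs and receptors, had 102, 86.8 and 92.0 with siSRC4, against 165, 143 and 141 in controls, 1.6-fold lower. The pseudoreceptor BAMBI was 2.27-fold lower and the ligand BMP4 1.55-fold. With 1 library left out, 4 to 5 of the members passed (limma). With a mean signal of at least 5, where fewer genes are tested, 3 of them passed. At that minimum 1 WNT gene passed as higher and 1 as lower. SMAD9, a BMP-regulated SMAD, was 1.73-fold lower. Activators and inhibitors of the pathway were thus both among the lower genes.

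Of 34 cyclins, CDKs and CDK inhibitors, 3 were listed, all lower (8.82%, median GC 42.2%). Of all genes tested 8.77% were listed, but the list may hold genes that were not tested, so these shares have unlike bases. CCND1, the D-type cyclin of early G1, had 579, 564 and 592 in siSRC4 libraries, against 1080.2, 919 and 949 in controls, 1.7-fold lower without overlap. CDK7, the CDK-activating kinase, was 1.55-fold lower. CCNA2, the S-phase cyclin, had 1.93, 1.66 and 1.49 with siSRC4, against 2.96, 2.58 and 2.21 in controls; its adjusted p was 0.0178 by limma, 0.0528 without siSRC4 replicate 2 and 0.0639 without control replicate 1. Of 46 mitosis genes 3 were listed as lower (6.52%, median GC 40.8%). AURKA fell 1.73-fold, while TTK and NCAPG stood at signals too low to fit. Of 46 genes for DNA replication 1 was listed, GINS4, with a ratio of 1.43. Its call was lost without siSRC4 replicate 1 or control replicate 1 or 3, with an adjusted p of up to 0.103 (limma). Of 33 p53 targets 1 was listed, TP53INP1, which fell 1.49-fold. CDKN1A and CDKN2A were not listed. The insulin and ageing regulators (4 of 39) included IGFBP4, which binds insulin-like growth factors, at 1672, 1843 and 1750.4 with siSRC4, against 984, 1012 and 1039 in controls, a ratio of 1.73. PIK3CD and FOXO4 rose 1.84-fold and 1.43-fold, and PIK3CA fell 1.54-fold with overlapping libraries. FOXO4 lost its call without siSRC4 replicate 2 or any 1 control library, with an adjusted p of up to 0.134 (limma), and PIK3CA without siSRC4 replicate 3 or control replicate 1 or 2, with an adjusted p of up to 0.0772.

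Interferon-stimulated genes were 6 of 43, 5 lower and 1 higher (median GC 42.0%). MX1 rose 1.81-fold. IFIT3 fell 1.55-fold, with 5.24, 4.55 and 3.21 in siSRC4 libraries, against 7.24, 6.57 and 6.37 in controls. DDX58, the sensor of double-stranded RNA known as RIG-I, had 2.21, 1.66 and 1.67 with siSRC4, against 2.57, 2.98 and 2.59 in controls. DDX58, DDX60 and SAMD9L each lost their call without siSRC4 replicate 2 and without siSRC4 replicate 3. DDX58 also lost it without control replicate 2, and SAMD9L, whose libraries overlapped, without control replicate 1 or 2. The highest adjusted p of these genes was 0.0795 for DDX58, 0.0906 for DDX60 and 0.0908 for SAMD9L (limma). The count of lower members was 2 without either of those libraries or without control replicate 2, and 3 without control replicate 1. With a mean signal of at least 5, where fewer genes are tested, 2 members passed as lower and 0 as higher. Antigen presentation had 2 of 23 genes, with HLA-DMA higher and the immunoproteasome subunit PSMB9 lower.

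In metabolism, fatty acid and lipid storage genes were 7 of 34 (20.6%), 5 listed as lower and 2 as higher, and 4 passed. Beside FABP4, FABP3 fell 2.01-fold, and ACLY, which makes cytosolic acetyl-CoA, had 115, 122 and 129 in siSRC4 libraries, against 200.2, 182 and 168 in controls, 1.5-fold lower. PNPLA3, a lipid droplet hydrolase, rose 1.93-fold. CD36 and DGAT2 overlapped between groups and did not pass, with adjusted p of 0.0581 and 0.0518 (limma); with the replicate block these were 0.0244 and 0.0143. No gene of cholesterol synthesis was listed, of 28. Glycolysis and hypoxia genes were 4 of 38. SLC2A1, the glucose transporter GLUT1, had 120.3, 134 and 166 with siSRC4, against 234, 226 and 259 in controls, 1.71-fold lower, and the mitophagy receptor gene BNIP3L was 1.63-fold lower. The carbonic anhydrase gene CA12 rose 1.53-fold, with an adjusted p of 0.0508 without siSRC4 replicate 2 and 0.0607 without control replicate 3 (limma). Solute carriers as a whole were 34 of 376 genes (9.04%, median GC 51.5%), 19 higher and 15 lower. SLC25A22, the mitochondrial glutamate carrier, was 2.1-fold lower at a GC content of 63.7%, and the lysosomal SLC38A7 rose 1.93-fold.

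Protein turnover was listed on both sides. The autophagy initiator kinase ULK1 rose 1.65-fold. MAP1LC3A, a coat protein of autophagosomes, had 103, 112 and 130.0 in siSRC4 libraries, against 66.9, 67.1 and 69.5 in controls, a ratio of 1.7. Its relative GABARAPL1 had 130.2, 131 and 146 with siSRC4, against 214, 209 and 232 in controls, 1.61-fold lower. LAPTM4A, a lysosomal membrane protein chosen here after its values were seen, had 173, 184 and 190.1 with siSRC4, against 457, 487 and 534 in controls, 2.7-fold lower. Among chaperones (4 of 25), HSPB8 rose 1.66-fold and HSPA1A 1.56-fold; HSPA1A has a near-identical paralog. HSP90AA1 had 427, 304 and 206 with siSRC4, against 556, 520.3 and 485 in controls, 1.67-fold lower, and CHORDC1, an HSP90 co-chaperone, was 1.67-fold lower. Proteasome subunits were 3 of 37 (8.11%, median GC 42.1%), all lower, with PSMA3 and PSMA4 beside PSMB9. Ribosomal proteins were 3 of 81 (3.7%, median GC 43.5%), also lower, RPL36A, RPS27A and RPL21, all genes with many pseudogenes. Of 51 ubiquitin-specific proteases, a family picked after its values were seen, 7 were listed, 6 lower and 1 higher. USP44 fell 2.35-fold and USP40 rose 1.5-fold. The lists for folding in the endoplasmic reticulum (30 genes) and for mitochondrially encoded genes (13) had no listed member. Outside the folding list, genes for other enzymes of the endoplasmic reticulum were listed, picked here after their values were seen. The authors' own fold was 0.365 for PDIA5, 1.70 for ERO1A and 1.95 for GANAB.

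Guidance and adhesion molecules include further families that were chosen after their values were seen. Of 22 gamma protocadherins, 10 were listed, all higher, with a median GC of 55.1%, and 9 passed. These transcripts share their last exons, so the counting can spread reads between them and the members are not independent. PCDHGA4 had 16.4, 17.9 and 17.7 in siSRC4 libraries, against 11.2, 10.8 and 8.93 in controls, a ratio of 1.68. Of 20 semaphorins 7 were listed, 5 higher and 2 lower. After SEMA7A, SEMA4B rose 1.47-fold, and SEMA6A fell 1.54-fold. Plexins, the semaphorin receptors, were 3 of 9, all listed as higher (median GC 62.3%). PLXND1 had 58.2, 56.4 and 52.3 with siSRC4, against 40.8, 39.9 and 37.3 in controls, a ratio of 1.41, and PLXNB1 had 1.52. Zinc finger genes of the ZNF name were 21 of 508 (4.13%, median GC 42.6%), 7 higher and 14 lower. ZNF664 rose 1.85-fold.

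The other lists had 1 to 3 listed members. Amino acid and integrated stress response genes were 3 of 33 (median GC 47.0%), with ASNS, the asparagine synthetase, 1.56-fold lower beside SLC7A11, and TRIB3, a pseudokinase induced by ATF4, 1.56-fold higher. Senescence markers were 3 of 20 (median GC 51.6%), 2 higher and 1 lower, among them the decoy receptor gene TNFRSF10C (ratio 1.81) as higher and CCND1 as lower. YAP and TAZ targets were 2 of 26, actin and SRF genes 2 of 32, and double-stranded RNA sensing and RNA interference genes 2 of 24, each with 1 higher and 1 lower. Vesicle traffic genes were 3 of 56 (median GC 36.2%), where RAB38 fell 1.68-fold. RAB8B had 18.0, 11.9 and 6.67 with siSRC4, against 15.0, 17.9 and 12.5 in controls, and did not pass (limma, adjusted p = 0.237) unless siSRC4 replicate 1 was left out (0.018). Of 57 chromatin modifiers HDAC6 alone was listed, with a ratio of 1.72, and of 55 nuclear genes of the respiratory chain ATP5F1C alone, which fell 1.59-fold.

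Values of both SRC siRNAs can be set side by side for genes that are also in the authors' deposited table for siSRC2; both comparisons use the same PD45 control libraries, so their values are not independent. IGFBP4 had a ratio of 1.73 with siSRC4 and 1.79 with siSRC2. For MMP14 the ratio was 2.49 with siSRC4 and 1.5 with siSRC2, and for ADAM19 it was 2.31 with siSRC4 and 1.9 with siSRC2. Among the collagen genes, COL4A1 stood at 1.67 with siSRC4 and 1.67 with siSRC2, and P4HA3 at 2.38 with siSRC4 and 3 with siSRC2. On the lower side, FABP4 stood at 0.322 with siSRC4 and 0.681 with siSRC2, and FABP3 at 0.498 with siSRC4 and 0.465 with siSRC2. ANKRD1, a YAP target, stood on opposite sides, at 1.58 with siSRC4 and 0.429 with siSRC2, although its siSRC4 and control libraries overlapped and its call with siSRC4 was lost without siSRC4 replicate 1 or 2 or control replicate 2 or 3 (adjusted p up to 0.0885, limma). The difference between the siRNAs was not tested for any gene.

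The cell type labels could be checked in the PD45 control alone, because fibroblast markers are not among the listed genes. Of 17 fibroblast markers 7 had a control signal in another table, between 27.0 for PDGFRA and 3225 for VIM, with a median of 115. Markers of other cell types had control signals too, in ranges that met those of the fibroblast markers. Of 18 epithelial markers 5 had a value, between 4.90 and 135 (KRT19), and of 14 smooth muscle and pericyte markers 6 had one, between 1.27 and 136 (CNN1). Of 12 endothelial markers 3 had a value, 0.053 for TIE1, 7.39 for TEK and 57.9 for EGFL7, and of 18 leukocyte markers CD68 alone, at 48.0. Of the markers of other cell types, KRT17, an epithelial keratin, was listed as higher (20.2, 22.6 and 14.2 with siSRC4 and 12.4, 9.93 and 7.09 in controls), and RGS5, a pericyte marker, as lower with overlapping libraries and a call that was lost without any 1 of 4 libraries (adjusted p up to 0.128, limma). In bulk RNA, fewer cells of a type and less RNA per cell cannot be told apart.

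Among the lower genes, EPB41L5, a FERM-domain adaptor, lay nearest the edge of the authors' rule. It had 7.03, 6.06 and 5.58 in siSRC4 libraries, against 9.62, 8.73 and 8.66 in controls, and the authors' deposited table gives a fold of 0.666 for it. Genes just outside the rule were not used here. For 7 genes the ratio of mean signals pointed the other way from the fold in the authors' deposited table. DMD, the dystrophin gene, is listed there with a fold of 0.533, but its signals were 5.23, 38.5 and 4.32 with siSRC4, against 8.46, 7.13 and 6.83 in controls, where 1 siSRC4 library stood far above the others. ELOVL6, a fatty acid elongase gene, had a like pattern, with 4.08, 3.16 and 16.3 with siSRC4 and 8.02, 6.2 and 6.02 in controls. In LCOR, a nuclear receptor corepressor gene, 1 siSRC4 library likewise stood far above the others, at 38.0, 4.13 and 4.44 with siSRC4, against 2.45, 2.4 and 3.82 in controls; its call did not pass the re-test. Besides DMD and ELOVL6, the genes with opposite signs were POMT2, ZNF28, MIGA1, LINC00475 and ARMCX4.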

How the data were processed

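RNA-seq libraries of WI-38 cells were compared, 3 with siSRC4 and 3 of the PD45 control. Of tools, the processing notes by the submitters list edgeR, DESeq2, RSEM, StringTie, HISAT2 and CASAVA, with no roles, and they name the mouse build GRCm38, while all gene identifiers are human Ensembl ones, so no coordinates are taken from the files. Per the file headers, the authors give a normalised signal per library, and whether it is TPM or FPKM is not given in the sources used here. Per the file headers, the authors' table also holds a linear fold ratio, a log2 fold change, a p-value and an adjusted p-value per gene. Its mean column is titled siSRC2 and its library columns siSRC4; the library names were followed. If they are wrong, the siSRC4 and siSRC2 values given here are exchanged.

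Means, SD and ratios of the deposited signals were taken in Python 3.11.15 (numpy 2.4.6, pandas 2.3.3, matplotlib 3.10.9 for figures and scipy 1.17.1 for the permutation test). The re-test used limma 3.58.1 (R 4.3.3) with its trend option on log2(signal + 1), for listed genes whose signal averaged 1 or more, with Benjamini-Hochberg adjustment over all genes fitted. Differences on that scale understate changes of low signals. The same code was tested on simulated data. GC content is that of the longest GENCODE 29 transcript of each gene, and promoters come from RefSeq on GRCh38.p14.

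The members, the 43 gene lists with 1444 distinct genes, the 2 families taken by symbol prefix and the 5 families added later were chosen with earlier results of these data known. Named genes are SRC, the 10 largest ratios in each direction among genes with a higher group mean of at least 5 that passed the re-test without overlap, and up to 3 members per direction of lists with at least 3 listed genes. Listed members of the SRC, PAK and JAK-STAT lists are also named. Some listed genes are counted in their lists but not reported here by name. Other named genes were chosen after their values were seen. Same-numbered libraries of the groups deviated from their group means together, with correlations across genes of 0.122, 0.107 and 0.136. The main re-test treated the libraries as unpaired. Only the alternative with a replicate block paired them by number, a choice made from these correlations and not from any label. The correlations are low and do not establish pairing. In the bin of lowest GC, replicate 1 of both groups deviated upward and replicate 3 downward. A shared trend with GC content is thus not told apart from pairing. The alternatives were other pseudocounts, signal minimums and scaling, no trend, a replicate block and leaving out each library.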

Additional observations from a re-analysis of the deposited data

Results flagged for a closer look

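Among 71 genes in the deposited tables of both SRC siRNAs that passed the siSRC4 re-test and had a higher group mean of at least 5, 12 had libraries on opposite sides of the control. Every siSRC4 library lay on one side of all PD45 control libraries and every siSRC2 library on the other side. The difference between the siRNAs was not tested, and both comparisons share the control libraries. Which siRNA each table belongs to follows its library names. Ratios of mean signals over the PD45 control follow for each gene.

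Higher with siSRC4 were FOLR3, a secreted folate receptor (2.38 with siSRC4 and 0.461 with siSRC2), SGPL1, the sphingosine-1-phosphate lyase (1.98 with siSRC4 and 0.563 with siSRC2), and the keratin-associated KRTAP2-3 (1.72 with siSRC4 and 0.572 with siSRC2). ADAMTSL1, a secreted relative of the ADAMTS proteases, had 1.64 with siSRC4 and 0.722 with siSRC2. The collagen receptor kinase DDR1 had 1.61 with siSRC4 and 0.648 with siSRC2, and the T-cell receptor segment TRBV12-4 had 1.57 with siSRC4 and 0.604 with siSRC2; it has a near-identical neighbour and its counts are uncertain. KRTAP2-3 belongs to a family of near-identical copies too.

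Lower with siSRC4 were the matrix protease ADAMTS19 (0.385 with siSRC4 and 2.37 with siSRC2), the cation channel TRPA1 (0.399 with siSRC4 and 1.61 with siSRC2) and the adhesion regulator SSX2IP (0.384 with siSRC4 and 1.6 with siSRC2). PCDH18, a protocadherin, had 0.521 with siSRC4 and 1.76 with siSRC2. HSD17B2, a steroid dehydrogenase, had 0.557 with siSRC4 and 1.91 with siSRC2, and the membrane protein LRRN3 had 0.575 with siSRC4 and 1.58 with siSRC2. For SGPL1 the library signals were 14.3, 16.0 and 13.7 with siSRC4 and 3.89, 4.06 and 4.6 with siSRC2, against 7.94, 7.36 and 6.98 in the PD45 control. PCDH18 had 28.7, 22.1 and 22.8 with siSRC4 and 86.3, 79.1 and 84.1 with siSRC2, against 50.8, 43.7 and 46.9 in the PD45 control.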

How the results depend on the processing

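The number of listed genes passing the re-test as higher was 471, and it was 276 with a mean signal of at least 5, where fewer genes are tested. Leaving out 1 library gave 428 to 468 higher and 527 to 653 lower genes, beside 471 and 625 with all libraries, and a log2 difference for SRC of -0.88 to -0.74. The alternatives were run for 178 named genes, not for LCOR, PDIA5, ERO1A, GANAB or the 7 genes whose signal ratio opposed the authors' fold. None of the 178 changed direction. Of 2284 alternative values, 2213 kept their side of the threshold, 48 lost it, all of them with 1 library left out, and 23 passed where the gene had not. With the replicate block, which assumes that same-numbered libraries are paired, 479 genes passed as higher and 643 as lower. Among the 178 genes, the block added the calls of ROCK2 (adjusted p = 0.00619), ARHGAP5 (0.00478), CAMK4 (0.00427), CD36 (0.0244), DGAT2 (0.0143) and TCF7 (0.0484), by limma, and it changed no other. In the ZNF list 7 members passed as lower without control replicate 1 or 2, against 11 with all libraries. Shifting the siSRC4 libraries to the authors' median fold change moved log2 values by -0.04. Read depth is unknown, so no counting interval can be given. The table holds selected genes only, so its counts say nothing of genes outside it.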
